A study of Mus musculus with 35 samples.

Results

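The 46 genes described here act in ribosome biogenesis and the nucleolus. They were taken by symbol from a fixed list of names, which was chosen with earlier results of these data known. All 46 were found among the 54354 genes of the deposited table. RNA came from mouse colon tumour organoids, epithelial cultures grown in vitro, with the genotype labelled AKP in every group. Treated organoids received either palmitic acid, a saturated lipid precursor from which cells make ceramide, or carmofur, a fluorouracil derivative that blocks ceramidases, the enzymes that break ceramide down. Palmitic acid had 3 control libraries, 3 treated libraries labelled batch 1 and 2 labelled batch 2, and carmofur had 12 control and 15 treated libraries. The sources used here state no dose, no duration and no clone or pooling of cultures, and the labels assign the palmitic acid controls to neither batch. The question, per the design text, was how fatty acid and ceramide levels change transcription in these organoids.

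Ribosomes are built in the nucleolus, where RNA polymerase I copies ribosomal DNA into a long precursor RNA. Small nucleolar ribonucleoproteins guide methylation (box C/D) and pseudouridylation (box H/ACA) of that RNA, and further factors fold, cut and package it into the small and the large subunit. Many of these genes are known targets of the transcription factor MYC, and proliferating intestinal epithelium depends on them for growth.

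Library totals ran from 762888 counts in a palmitic acid control to 10609563 in a carmofur library, so that a count of 0 allows up to 3.87 CPM (counts scaled to library size) in the shallowest library and 0.292 in the deepest. All CPM given are scaled by TMM, edgeR's correction for library composition. In bulk RNA of this kind, fewer cells of a type and less RNA per cell cannot be told apart. The 10 epithelial markers summed to 3140 to 6702 CPM per library, and only Krt20 was at 0 in any (4 libraries). Of 9 mesenchymal markers, Col1a1, Col1a2, Lum, Pdgfrb and Thy1 were at 0 in all 35 libraries, and the 9 summed to at most 6.84 CPM. The immune sum (8 markers, 7.48 to 166 CPM) was almost wholly Cd68, and Cd3e and Csf1r were at 0 in every library. Of 8 markers of endothelium and blood only Pecam1 was seen in all libraries, and their sum was 5.88 to 21.6 CPM. Carmofur control 1 and carmofur 8 and 10 agreed least with their own groups (r = 0.846, 0.862 and 0.866 with the group's other libraries, over genes, which are not independent replicates).

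Promoters are shown for 4 members on which the results below turn. Nip7 and Utp4 were the members called with carmofur in every setting run over all blocks, and Nhp2 and Ebna1bp2 were those with the lowest p for a difference of the carmofur effect between library blocks. Each is the window from 250 bases before to 50 after the start site, printed 5′ to 3′ on the gene's strand from RefSeq (GRCm38.p6), with the ETS-type motif CCGGAAG (either strand) and the E-box CACGTG (the same on both strands) in capitals. The windows lie at chr8:107056627-107056926, plus strand (Nip7), chr8:106893390-106893689, plus strand (Utp4), chr11:51619523-51619822, plus strand (Nhp2) and chr4:118620549-118620848, plus strand (Ebna1bp2).
Nip7: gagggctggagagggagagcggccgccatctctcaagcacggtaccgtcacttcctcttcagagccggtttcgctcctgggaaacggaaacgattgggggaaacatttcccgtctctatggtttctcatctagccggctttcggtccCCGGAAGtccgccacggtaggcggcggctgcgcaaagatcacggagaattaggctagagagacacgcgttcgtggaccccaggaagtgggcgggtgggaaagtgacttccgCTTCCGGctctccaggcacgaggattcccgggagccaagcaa
Utp4: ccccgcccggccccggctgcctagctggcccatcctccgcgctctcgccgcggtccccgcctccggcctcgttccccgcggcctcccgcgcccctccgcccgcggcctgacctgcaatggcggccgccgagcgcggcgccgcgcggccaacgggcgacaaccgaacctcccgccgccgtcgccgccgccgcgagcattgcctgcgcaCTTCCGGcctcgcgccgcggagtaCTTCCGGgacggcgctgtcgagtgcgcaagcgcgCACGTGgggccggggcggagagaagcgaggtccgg
Nhp2: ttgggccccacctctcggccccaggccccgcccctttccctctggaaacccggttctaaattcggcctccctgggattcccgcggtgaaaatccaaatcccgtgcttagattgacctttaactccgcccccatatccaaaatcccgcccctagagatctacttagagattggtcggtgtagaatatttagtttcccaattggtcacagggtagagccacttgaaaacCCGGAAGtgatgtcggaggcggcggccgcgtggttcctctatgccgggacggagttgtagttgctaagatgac
Ebna1bp2: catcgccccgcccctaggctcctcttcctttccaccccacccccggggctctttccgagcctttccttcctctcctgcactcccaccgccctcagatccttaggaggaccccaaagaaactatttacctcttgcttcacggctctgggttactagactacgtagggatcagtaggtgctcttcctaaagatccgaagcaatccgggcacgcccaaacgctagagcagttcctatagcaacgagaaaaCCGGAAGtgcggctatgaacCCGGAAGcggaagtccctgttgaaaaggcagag
Nip7 and Ebna1bp2 each held 2 ETS motifs, Nhp2 held 1, and Utp4 held 2 together with 1 E-box just past the start site. The windows of Nop58, Dkc1 and Ncl, also described below, held neither motif, and that of Pes1 held 1 E-box. Of the 40 members with a RefSeq window, 15 (37.5%) held the ETS motif, against 22.8% of the 7747 genes with a window that were tested with carmofur and 9.93% of all 27025 windows. The E-box stood in 7 of 40 (17.5%), against 12.3% and 8.09%. These matches describe the letters in the window and show no binding. Rrp12, Rrs1, Fbl, Gnl2, Bop1 and Npm1 had no entry.

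The members differed widely in level. Per kb of the transcript with the longest coding sequence, Npm1 (nucleophosmin, a histone and ribosomal protein chaperone) had the highest level in the carmofur controls at 804 ± 143 CPM per kb (SD, n = 12), followed by Nhp2 (738 ± 215) and Nop10 (379 ± 46.3), both core proteins of box H/ACA particles. These SDs of Npm1 and Nhp2 overlap, and that of Nop10 lies below both. Nop16, Brix1 and Nip7, assembly factors of the large subunit, stood at 258 ± 84.6, 234 ± 34.5 and 123 ± 17.0 CPM per kb. At the low end were Rrp12, a late-acting assembly factor, at 0.827 ± 0.746 CPM per kb, and Polr1a and Polr1b, the catalytic core of RNA polymerase I, at 2.06 ± 1.13 and 1.31 ± 1.06. By role, median levels per kb in these controls were highest for the box H/ACA proteins (218, 4 genes) and lowest for the nucleolar regulators of transcription (9.48, 2 genes) and RNA polymerase I (8.15, 5 genes). The transcripts used for Nop58 (9.51 kb) and Ncl (8.20 kb) were long, which lowers their level per kb.

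Members at low level were more variable between libraries. Among the 12 carmofur controls, the 11 members with a mean under 20 CPM had a median coefficient of variation of 0.615, the 20 members from 20 to 100 CPM one of 0.375, and the 15 members at 100 CPM or more one of 0.192. Standard errors of the carmofur log2 fold change ran from 0.38 to 0.79 in the first class and from 0.09 to 0.20 in the last. All 4 members that passed the test with carmofur were in the last class. The first class holds Gar1, Rrp9, Npm3, Bop1 and Rrp12 among others. Even changes larger than their errors did not pass there, as for Bop1 (0.66 ± 0.48) and Utp20 (-1.21 ± 0.70). Changes of such size could therefore be missed in this class.

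**Figure D1:**
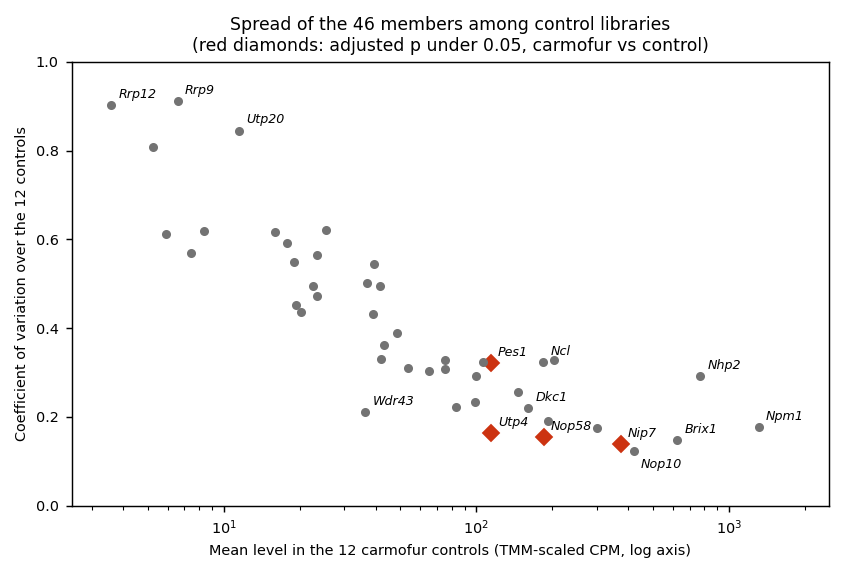
Each point is 1 of the 46 members: mean level in the 12 carmofur controls (TMM-scaled CPM, log axis) against its coefficient of variation over those controls, with red diamonds for members past the threshold in carmofur against control. The 11 members under 20 CPM lie between 0.452 and 0.911, and the 15 at 100 CPM or more between 0.122 and 0.328, where all 4 diamonds fall.

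With carmofur, Nip7 and Utp4 rose, and in the fit that takes the 27 libraries as independent Nop58 also rose and Pes1 fell. These 4 of 46 members (8.7%) passed an adjusted p of 0.05 in edgeR's quasi-likelihood test, where 9.02% of all 9992 tested genes passed (5.21% higher, 3.8% lower). The share is therefore near the background. The median log2 fold change over the members was 0.03, with 24 above and 22 below 0, against 0.00 over all tested genes. DESeq2 called the same 4 members. The libraries fall into 9 sets of 3, described below, and with counts summed by set or with sets as a correlated group only Nip7 and Utp4 passed.

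Nip7 (ENSMUSG00000031917, chromosome 8, 107056877 to 107060931, mm10), a factor for processing of precursor ribosomal RNA and large subunit assembly, ranged from 277 to 469 CPM in the 12 controls with a median of 370. In the 15 carmofur libraries it ranged from 428 to 711 with a median of 538. All 15 carmofur libraries lay above the control median and 12 above the highest control. The log2 fold change was 0.57 ± 0.09 (SE), a 1.48-fold rise, with an edgeR adjusted p of 8.89e-06.

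Utp4 (ENSMUSG00000041438, chromosome 8, 106893636 to 106923088), a subunit of the early small subunit processome also known as cirhin, had 94.0 to 162 CPM in controls (median 111) and 121 to 336 with carmofur (median 194). Again all 15 treated libraries lay above the control median, and 11 lay above every control. Its log2 fold change was 0.80 ± 0.13, a 1.74-fold rise (edgeR adjusted p = 1.85e-05). Utp4 and Nip7 are neighbours, with starts 163 kb apart on the same strand. The 3 tested genes between them did not pass: Sntb2 stood at -0.33 ± 0.65, Vps4a at -0.25 ± 0.58 and Cog8 at -0.43 ± 0.71 on the log2 scale.

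Nop58 (ENSMUSG00000026020, chromosome 1, 59684971 to 59719044), a core protein of box C/D particles, had 139 to 221 CPM in controls (median 193) and 181 to 328 with carmofur (median 235). Of the 15 treated libraries 8 exceeded every control, and 4 lay below the control median. The log2 fold change of 0.35 ± 0.11 had an edgeR adjusted p of 0.0383, which was 0.0504 with RLE scaling, 0.0601 with block as a covariate and 0.372 with counts summed by set. Its partners in the same particle did not pass: Nop56 stood at 0.02 ± 0.11, Fbl, the methyltransferase, at -0.21 ± 0.19, and Rrp9, specific to the U3 particle, at -0.35 ± 0.66.

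Pes1 (ENSMUSG00000020430, chromosome 11, 3963975 to 3980004), a subunit of the PeBoW complex needed for large subunit maturation, had 59.7 to 180 CPM in controls (median 112) and 14.9 to 116 with carmofur (median 78.3). Below the control median lay 14 of 15 treated libraries, and 3 lay below every control. The log2 fold change was -0.62 ± 0.20 (edgeR adjusted p = 0.043). The adjusted p was 0.0565 with library-size scaling, 0.0567 with limma-voom and 0.173 with edgeR on counts summed by set. The other PeBoW subunits had values above 0 and did not pass, Wdr12 at 0.16 ± 0.11 and Bop1 at 0.66 ± 0.48. Pes1 overlaps 4930556J24Rik on the opposite strand, and strand use in the counting is not given in the sources used here.

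**Figure D2:**
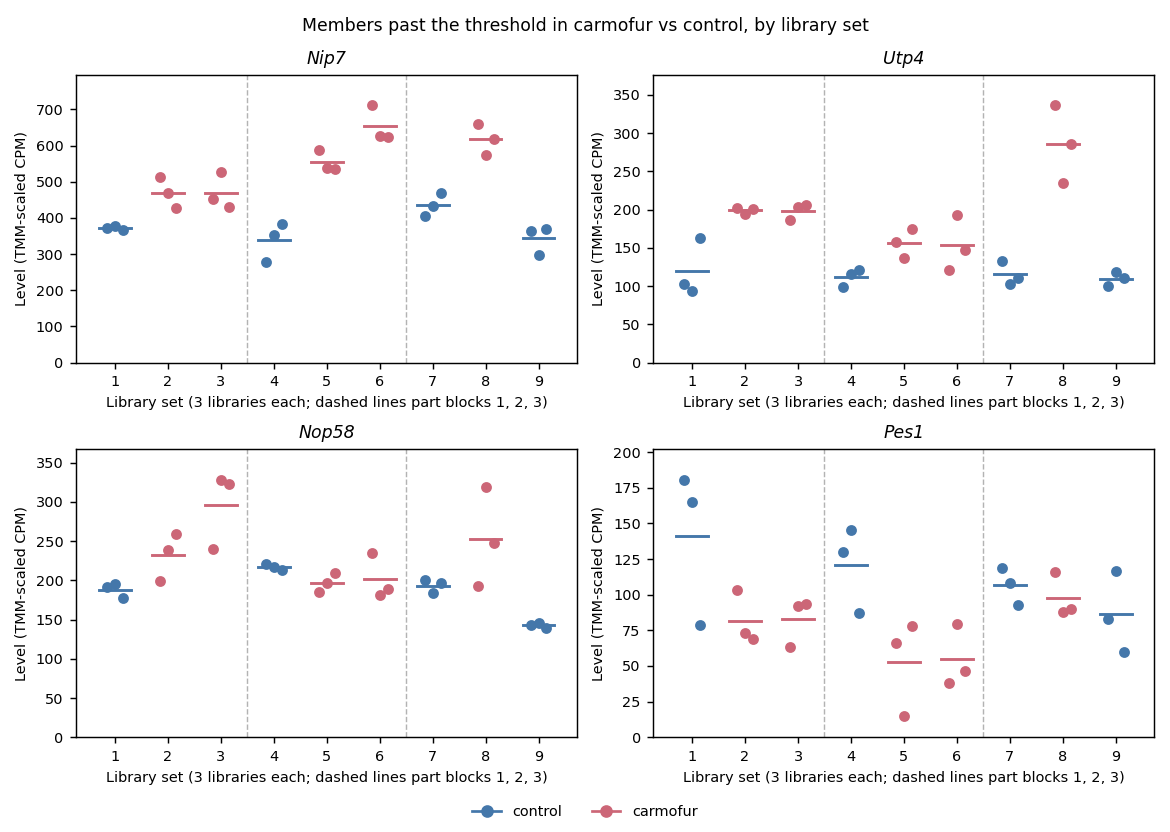
Level (TMM-scaled CPM, axes from 0) of Nip7, Utp4, Nop58 and Pes1 in the 27 libraries of the carmofur experiment, by library set; blue points are controls, red points carmofur, and bars the mean of the 3 libraries of a set. For Nip7 and Utp4 every carmofur set mean lies above every control set mean, whereas in block 2 the Nop58 carmofur means (197 and 202 CPM) lie below the control mean (217 CPM).

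Next in rank were Ddx21, a nucleolar RNA helicase that couples polymerase I transcription to processing, and Polr1c, a subunit shared by RNA polymerases I and III. Ddx21 had 18.5 to 84.5 CPM in controls (median 29.4) and 18.7 to 86.0 with carmofur (median 47.0), a log2 fold change of 0.56 ± 0.23 (edgeR adjusted p = 0.149). Polr1c had 64.7 to 134 CPM in controls (median 79.6) and 33.4 to 139 with carmofur (median 112), or 0.38 ± 0.16 (edgeR adjusted p = 0.149). In both the groups overlapped across nearly the whole range. Mybbp1a, a repressor that shares Ddx21's role group, had the opposite sign (-0.42 ± 0.23). No member's carmofur libraries were all above or all below its controls, against 0.59% and 0.17% of all tested genes.

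By role, 1 of 4 box C/D proteins, 1 of 9 small subunit factors and 1 of 15 large subunit factors rose, 1 of 3 PeBoW subunits fell, and 0 passed among 4 box H/ACA proteins, 4 chaperones and scaffolds, 5 polymerase I genes and 2 regulators of transcription, where 5.21% of all tested genes rose and 3.8% fell. In the last 4 groups edgeR gave unadjusted p under 0.05 for 0, 1, 1 and 1 genes, as for 1894 of all 9992. With so few genes a group, these counts set no role apart. The edgeR values within the small subunit group spread from -1.21 ± 0.70 for Utp20, a very large scaffold protein at low level, to the rise of Utp4. Among the chaperones Nolc1, a scaffold of nucleolar particles, was at 0.49 ± 0.22 and Npm1 at -0.21 ± 0.12, and neither passed. The 5 polymerase I genes ran from -0.66 ± 0.39 for Polr1a to Polr1c, with the transcription factor Ubtf at -0.15 ± 0.29.

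**Figure D3:**
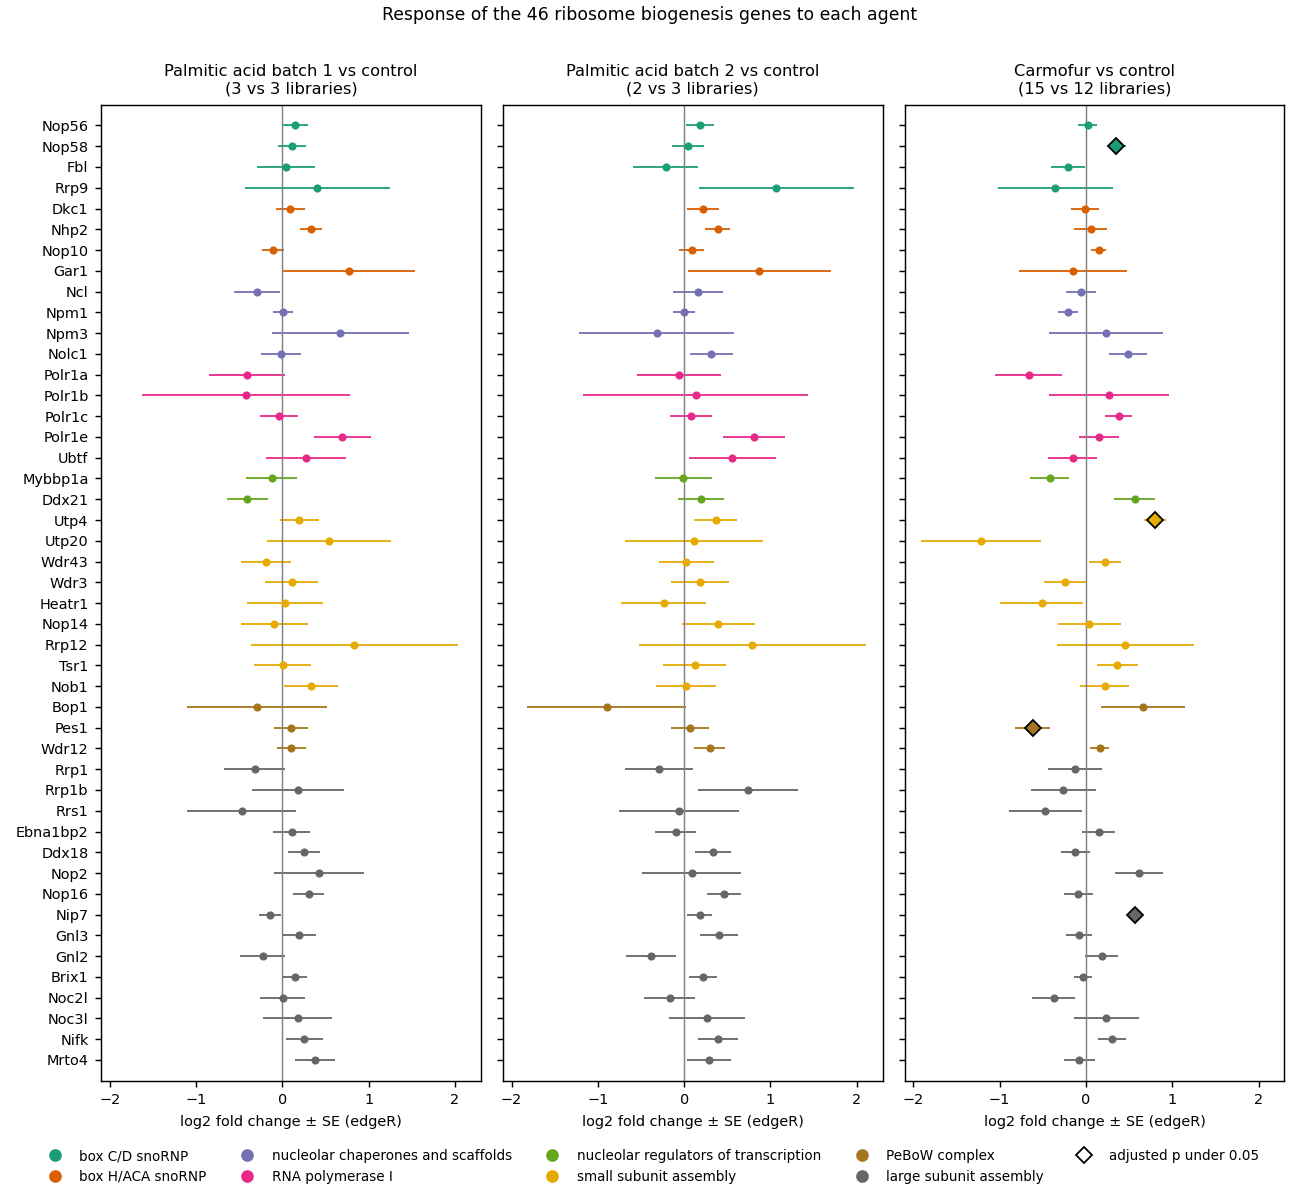
Log2 fold change (horizontal, ± SE from edgeR) of each of the 46 members, grouped and coloured by role, in palmitic acid batch 1, palmitic acid batch 2 and carmofur, each against its own control. Black-edged diamonds mark an adjusted p under 0.05: there are 0 in both palmitic acid panels and 4 in the carmofur panel, at 0.80 (Utp4), 0.57 (Nip7), 0.35 (Nop58) and -0.62 (Pes1).

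Other genes of the pathway were taken from lists of polymerase I factors, processome subunits, large subunit factors and the RNA exosome. With carmofur 8 of 112 tested rose and 3 fell (9.82%, against the same 9.02% of all genes), with a median of -0.02. Polr2l, a subunit common to RNA polymerases, rose by 0.66 ± 0.11, and Taf1d, of the polymerase I selectivity factor, by 0.59 ± 0.10, while Polr2h, another common subunit, fell by 0.52 ± 0.14. Among processome genes the kinase Riok2 (0.61 ± 0.16) and Utp11 (0.36 ± 0.10) rose and the methyltransferase Emg1 changed by -0.57 ± 0.14. The large subunit factors Ftsj3, Sbds and Ddx24 rose by 0.73 ± 0.22, 0.48 ± 0.14 and 0.44 ± 0.14, and the exosome subunit Exosc2 by 0.53 ± 0.10. The edgeR adjusted p of these 10 ran from 3.58e-05 (Polr2l) to 0.0485 (Ddx24).

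Of 14 tested genes of the MYC network and nucleolar stress response, 0 rose and 2 fell with carmofur. Both are ribosomal proteins that bind the p53 regulator Mdm2: Rpl5 changed by -0.42 ± 0.07 (edgeR adjusted p = 1.11e-05) and Rpl11 by -0.27 ± 0.06 (0.00363). Myc itself had a median of 45.4 CPM in controls (19.3 to 91.5) and 65.1 with carmofur (14.2 to 107), or 0.44 ± 0.25 (edgeR adjusted p = 0.348). Mdm2 stood at -0.19 ± 0.36 and Cdkn1a, the p53 target p21, at 0.32 ± 0.23, and neither passed. Messages of ribosomal proteins were summed over symbols with a number directly after Rpl or Rps, which leaves out the Rplp genes and Rpsa. They made up 9.0% to 11.3% of counts in the 15 carmofur libraries and 11.4% to 13.2% in the 12 controls, so that these groups did not overlap. The biogenesis genes above had no such common direction.

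The carmofur libraries carry serial numbers that fall into 9 sets of 3, and the sets into 3 blocks. The labels do not call them batches, and since blocks 1 and 2 hold 1 control set and 2 carmofur sets each and block 3 holds 2 control sets and 1 carmofur set, set and treatment cannot be told apart within a block. The members moved differently in the 3 blocks. Their median log2 fold change was 0.28 in block 1 (36 of 46 above 0), -0.37 in block 2 (15 of 46 above 0) and 0.25 in block 3 (35 of 46 above 0). The block 3 median was 0.09 without control set 9 and 0.47 without control set 7. The block 2 median was -0.56 without carmofur set 5 and -0.26 without carmofur set 6. Over all tested genes the medians were 0.03, 0.03 and -0.03. The other 112 ribosome biogenesis genes had medians of 0.12, -0.14 and 0.13.

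In block 1 edgeR called 1 member higher, Utp4, and 0 lower, against 0.791% higher and 0.971% lower of all tested genes. In block 2 it called 7 lower (15.2% of the members against 3.39% of all genes) and 1 higher, Nip7 (against 4.74%). The 7 were Nhp2, Dkc1, Ncl, Npm1, Wdr3, Pes1 and Ebna1bp2. In block 3 it called Nop58, Utp4 and Nip7 higher (6.52% against 3.72%) and 0 lower (against 2.34%). At an unadjusted p under 0.05 edgeR gave 11, 15 and 11 of 46 members in blocks 1, 2 and 3. Of all 9992 genes it gave 1116, 1839 and 1591.

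A direct edgeR test of whether the carmofur effect differed between blocks was added after these data had been seen. It takes the libraries of a set as independent, and was not run with sets summed or as a correlated group. At an unadjusted p under 0.05 it gave 14 of 46 members. This count was not taken over all genes, so that it cannot be read as an excess. After adjustment it passed in 4 of 46 members (8.7%) against 1.78% of all tested genes. The 4 were Nhp2, Ebna1bp2, Dkc1 and Ncl. Of the 112 other ribosome biogenesis genes 1 passed (0.893%), Polr2f, a polymerase subunit named after its value was seen, at 0.12, -0.84 and 0.38 in blocks 1, 2 and 3. Across the members 16 were above 0 in blocks 1 and 3 and below 0 in block 2, 13 were above 0 in all 3 blocks, and 4 (Polr1a, Rrp1, Rrs1 and Noc2l) were below 0 in all 3.

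Nhp2 (ENSMUSG00000001056, chromosome 11, 51619735 to 51623714) had the lowest p. In block 2 its 3 controls had 1084, 1080 and 685 CPM, and its 6 carmofur libraries had 639, 435, 543, 385, 462 and 573, all below the controls. In block 1 the controls had 884, 1007 and 845 CPM, within the carmofur range of 857 to 1374 (median 1073). In block 3 the 3 carmofur libraries had 734, 802 and 825 CPM, near control set 7 (702, 707 and 814) and above control set 9 (468, 478 and 474). The log2 fold changes were 0.26 ± 0.17, -0.91 ± 0.17 and 0.38 ± 0.17, and the edgeR test of the difference between blocks had an adjusted p of 0.00163. Control sets 7 and 9 themselves did not overlap, with means of 741 and 473 CPM. Nhp2 overlaps Rmnd5b on the opposite strand.

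Ebna1bp2 (ENSMUSG00000028729, chromosome 4, 118620799 to 118627776), needed for processing of the large subunit precursor RNA, had 186, 205 and 140 CPM in the block 2 controls and 68.3 to 130 (median 92.1) in the 6 carmofur libraries, with no overlap. In block 1 it had 169 to 191 in controls and 190 to 323 with carmofur, and in block 3 85.5 to 139 and 127 to 154. The log2 fold changes were 0.43 ± 0.19, -0.90 ± 0.19 and 0.32 ± 0.19 (edgeR adjusted p of the difference 0.00414).

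Dkc1 (ENSMUSG00000031403, chromosome X, 75095854 to 75109777), the pseudouridine synthase of box H/ACA particles, had 162, 200 and 170 CPM in the block 2 controls and 66.2 to 151 with carmofur (median 105). In block 1 it was the controls that were low (101, 113 and 142, against 129 to 249 with carmofur). The log2 fold changes were 0.73 ± 0.23, -0.73 ± 0.21 and 0.11 ± 0.22 (edgeR adjusted p of the difference 0.0205), and in block 3 the carmofur mean of 188 CPM lay near that of control set 7 (189 CPM). Dkc1 overlaps Mpp1 on the opposite strand.

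Ncl (ENSMUSG00000026234, chromosome 1, 86344719 to 86359400), nucleolin, an abundant RNA-binding protein of the nucleolus, had 263, 257 and 189 CPM in the block 2 controls and 83.5 to 171 with carmofur (median 125). In block 1 it had 106 to 171 in controls and 158 to 295 with carmofur. The log2 fold changes were 0.66 ± 0.27, -0.93 ± 0.25 and 0.15 ± 0.25 (edgeR adjusted p of the difference 0.0313). In block 3 the carmofur mean was 199.8 CPM, between control set 7 (232 CPM) and control set 9 (128 CPM). Npm1 came just short, at 0.05 ± 0.15, -0.67 ± 0.15 and 0.13 ± 0.15 (0.0533).

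**Figure D4:**
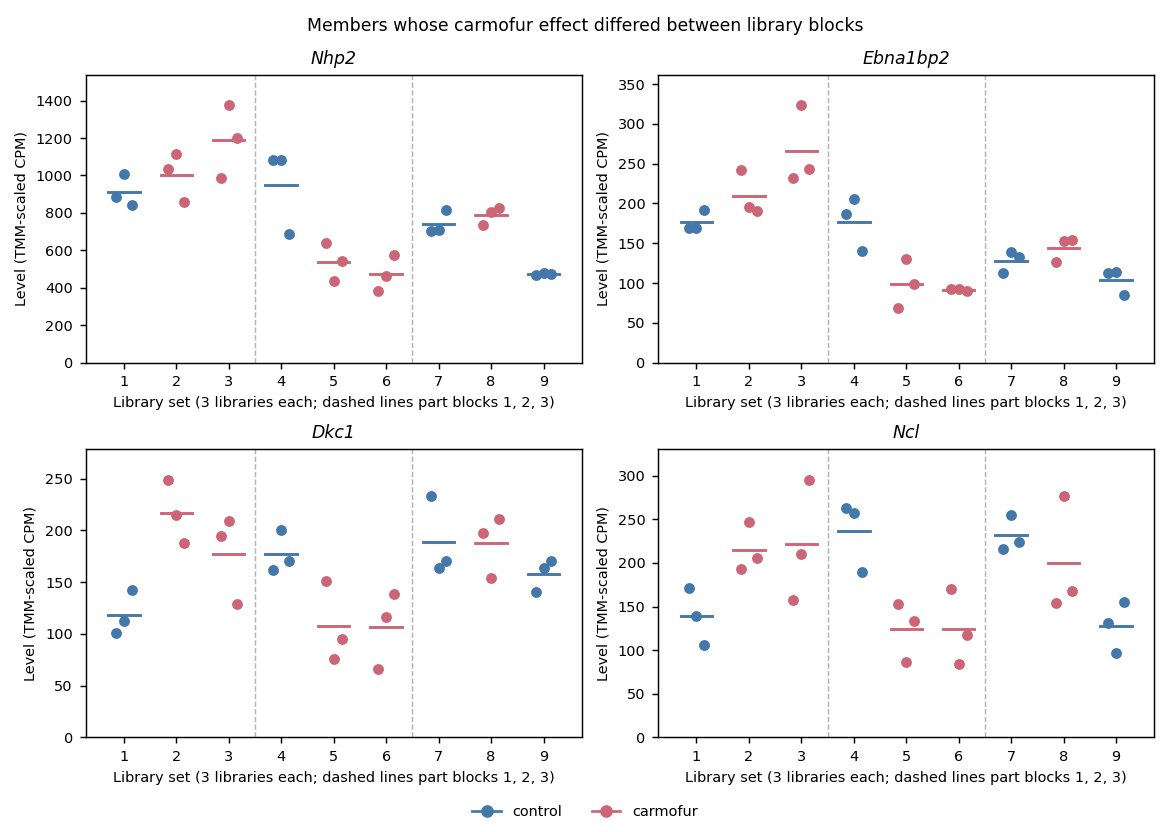
Level (TMM-scaled CPM, axes from 0) of Nhp2, Ebna1bp2, Dkc1 and Ncl in each of the 27 libraries by library set, blue for controls and red for carmofur, with bars at the mean of the 3 libraries of a set. In block 2 (sets 4 to 6) all 6 carmofur libraries lie below the 3 controls for each gene, which neither of the other blocks shows.

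In contrast, Nip7 was higher in every block, at 0.34 ± 0.13, 0.84 ± 0.13 and 0.66 ± 0.12, and in each block all its carmofur libraries lay above all its controls (for example 535 to 711 against 277 to 383 CPM in block 2). Utp4 showed the same separation in each block, at 0.73 ± 0.18, 0.48 ± 0.18 and 1.34 ± 0.17. Neither passed the test of a difference between blocks (edgeR adjusted p = 0.321 for Nip7 and 0.109 for Utp4). Nop58 was at 0.49 ± 0.17, -0.12 ± 0.17 and 0.59 ± 0.17. Pes1 was at -0.78 ± 0.32, -1.16 ± 0.32 and 0.02 ± 0.33. The larger values behind their pooled calls were thus in blocks 1 and 3 for Nop58 and in blocks 1 and 2 for Pes1. The same test showed no difference between blocks for Nop58 (edgeR adjusted p = 0.196) or Pes1 (0.399) either.

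The mean over the 46 members of log2(CPM + 1), less the mean of the controls, gives each library 1 value. In block 1 the 6 carmofur libraries averaged 0.18 ± 0.13 (SD) and the 3 controls -0.18 ± 0.17, without overlap. In block 2 the order was turned, -0.31 ± 0.14 against 0.09 ± 0.18, again without overlap. In block 3 the 3 carmofur libraries lay between 0.20 and 0.22, within control set 7 (0.03 to 0.30) and above control set 9 (-0.17 to 0.01). Over all blocks the carmofur mean was -0.01 ± 0.28 (n = 15) against an SD of 0.20 among the 12 controls, and all 12 controls lay within the carmofur range.

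Other measures moved with block 2. Mitochondrial transcripts took 6.85% to 7.15% of counts in carmofur set 6 and 4.64% to 6.41% in all libraries of the other sets, and the immune sum, nearly all Cd68, was 102 to 166 CPM in set 6. In carmofur set 5 of the same block the mitochondrial share was 5.21% to 5.58%, and in the block's controls (set 4) it was 4.64% to 5.11%, so that all 6 carmofur libraries of block 2 lay above its controls in this share and below them in the member mean. The immune sum of set 5 (55.8 to 88.5 CPM) overlapped that of set 4 (35.1 to 93.2 CPM). Carmofur 8 and 10, which agreed least with their group, are also in block 2. Without these and control 1, 3 of the 4 members (Nhp2, Ncl and Ebna1bp2) still differed between blocks and the block 2 median was -0.44. The epithelial sum with carmofur lay above all controls in block 1 (5027 to 6069 against 4005 to 4706 CPM). It did so in block 3 as well (6415 to 6702 against 4537 to 5300 CPM). In block 2 the groups overlapped (4415 to 5615 against 4122 to 4594 CPM), with set 6 above the controls (5279 to 5615 CPM). Lgals4 was the largest part of this sum, with a median of 2697 CPM over all libraries, followed by Krt19 at 636. Over all blocks 7 of the 10 epithelial markers were above 0 with carmofur and 3 below. EdgeR called 1 of them higher, where 5.21% of all tested genes rose. The part of these measures in the block differences was not tested.

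**Figure D5:**
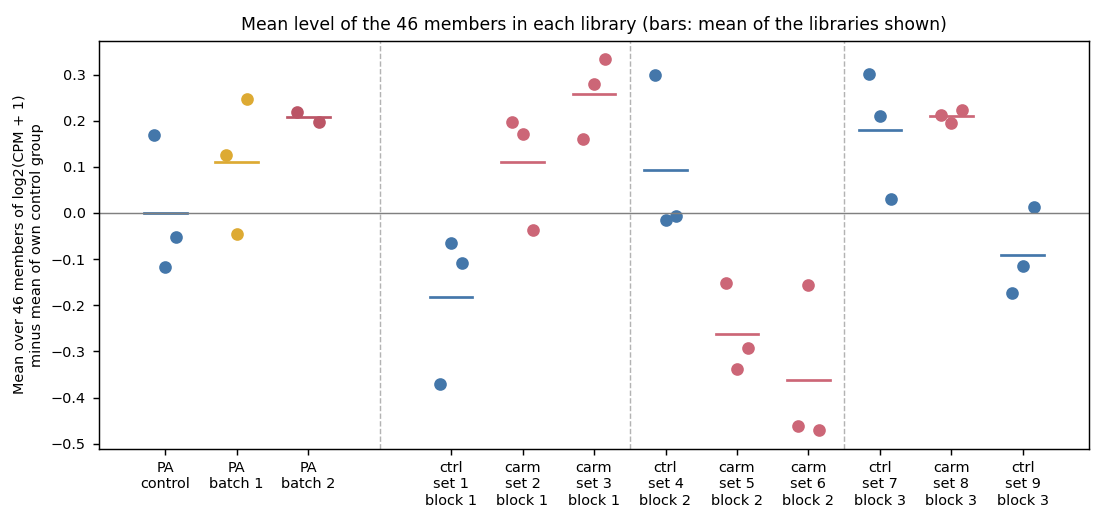
Mean over the 46 members of log2(CPM + 1), less the mean of the library's own control group, for every library (points) with the mean of each group or set (bars); dashed lines part the palmitic acid (PA) experiment and carmofur blocks 1, 2 and 3. Carmofur sets 5 and 6 average -0.26 and -0.36, below control set 4 (0.09), whereas sets 2 and 3 (0.11 and 0.26) lie above control set 1 (-0.18).

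With palmitic acid no member passed. In batch 1 edgeR called 0 of 46 (0.559% of all 9845 tested genes, 0.315% higher and 0.244% lower), and DESeq2 and limma-voom also called 0. EdgeR gave an unadjusted p under 0.05 for 2 of 46 members, as for 761 of all 9845 genes. The median log2 fold change was 0.10, with 31 of 46 above 0 (67.4%), against 0.01 and 51.3% over all genes. In batch 2 edgeR again called 0 of 46 (0.325% of all genes, 0.183% higher and 0.142% lower), and DESeq2 and limma-voom called 0. Here edgeR gave an unadjusted p under 0.05 for 3 of 46 members, as for 699 of all 9845 genes. The median was 0.17, with 34 above 0 (73.9%), against -0.01 and 49.1%. The summed level of the 10 epithelial markers moved with treatment: the controls lay between 3765 and 4098 CPM, and all treated libraries were lower, batch 1 between 3192 and 3327 CPM and batch 2 between 3140 and 3184 CPM. Of these markers 8 of 10 were below 0 in batch 1 and 9 of 10 in batch 2 (medians -0.32 and -0.28). EdgeR called 0 of them, with 2 and 4 at an unadjusted p under 0.05, and their part in the members' values was not tested. Both batches were set against the same 3 controls, so that these counts share any deviation of those controls.

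Nhp2 had the lowest p in both. Its controls had 516, 708 and 608 CPM, batch 1 had 701, 711 and 897, and batch 2 had 801 and 805. Batch 2 lay above every control, and batch 1 overlapped them. The log2 fold changes were 0.33 ± 0.13 and 0.39 ± 0.14 (edgeR adjusted p = 0.44 and 0.415).

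Polr1e, a subunit of the polymerase I initiation subcomplex, was at 20.6, 21.2 and 41.4 CPM in the controls, 50.0, 43.2 and 44.2 in batch 1, and 55.2 and 44.1 in batch 2. Treated libraries of both batches lay above every control. The log2 fold changes were 0.69 ± 0.33 and 0.81 ± 0.36 (edgeR adjusted p = 0.618 and 0.617), on counts of 16 to 204. Nop16 had 124, 135 and 220 CPM in controls, 184, 187 and 226 in batch 1, and 204 and 240 in batch 2, or 0.30 ± 0.18 and 0.46 ± 0.20 (edgeR adjusted p = 0.728 and 0.552). Here control 3 lay within the treated range.

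Ddx21 had 137, 61.5 and 81.0 CPM in controls and 72.8, 64.1 and 68.3 in batch 1 (-0.41 ± 0.24, edgeR adjusted p = 0.732), with its highest value in control 1, the shallowest library. Gnl3, nucleostemin, a nucleolar GTPase of stem cells and tumours, had 101, 102 and 135 CPM in controls and 159 and 140 in batch 2, above every control (0.40 ± 0.22, edgeR adjusted p = 0.73).

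Treated and control libraries did not overlap for 2 members in batch 1, both higher (Polr1e and Mrto4, 4.35% against 6.92% of all tested genes), and 0 lower (against 6.12%). In batch 2 this held for 11 members, all higher (23.9% against 10.9% of all genes), and 0 lower (against 9.02%). The 11 were Nop56, Dkc1, Nhp2, Gar1, Polr1e, Ubtf, Utp4, Wdr12, Nip7, Gnl3 and Mrto4. Of the 4 box H/ACA genes Dkc1, Nhp2 and Gar1 are among them, while Nop10 (0.09 ± 0.15) overlapped its controls. Gar1 stood at 0.87 ± 0.83, with as few as 2 counts in a control. With 2 treated libraries the lack of overlap is a description, and none of the 11 passed the test.

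Members carrying the carmofur calls gave no call here: Nip7 was at -0.14 ± 0.13 and 0.18 ± 0.14 in batches 1 and 2, Utp4 at 0.20 ± 0.23 and 0.36 ± 0.25, Nop58 at 0.11 ± 0.16 and 0.05 ± 0.18, and Pes1 at 0.10 ± 0.20 and 0.07 ± 0.22. Among the other ribosome biogenesis genes edgeR called 0 of 111 in either batch, with medians of 0.02 and 0.10. It gave an unadjusted p under 0.05 for 4 and 6 of the 111, against 761 and 699 of all 9845 genes. Myc stood at -0.11 ± 0.33 and -0.10 ± 0.36, Mdm2 at 0.03 ± 0.59 and 0.12 ± 0.65, and Cdkn1a at -0.06 ± 0.28 and 0.40 ± 0.31.

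Between the treated batches edgeR called 0 of 46 members (0.102% of all genes, 0.0609% higher and 0.0406% lower in batch 2), and DESeq2 and limma-voom called 0. EdgeR gave an unadjusted p under 0.05 for 2 of 46 members, as for 233 of all 9845 genes. Ddx21 had the lowest p, at 97.2 and 110 CPM in batch 2 against 64.1 to 72.8 in batch 1 (0.60 ± 0.26). Nip7 was at 732 and 748 CPM against 561 to 621, Ncl at 393 and 460 against 291 to 329, and Nop10 at 634 and 622 against 540 to 554. In these 4 the batches did not overlap, and every edgeR adjusted p was 0.9998. Across the members 6 were higher and 2 lower without overlap (13% and 4.35%, against 7.78% and 8.7% of all genes). Because the labels place no control in either batch, an effect of batch cannot be told apart from one of treatment.

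The effects of the 2 agents were compared directly in a fit of all 35 libraries. EdgeR called 0 of 46 members (0.818% of 14052 genes, 0.662% higher and 0.157% lower). It gave an unadjusted p under 0.05 for 1 member, as for 1089 of all 14052 genes. DESeq2 called 0, while limma-voom with quality weights and edgeR scaled by library size alone each called 1, Nip7. Its carmofur effect exceeded its palmitic acid effect by 0.55 ± 0.18 on the log2 scale (edgeR adjusted p = 0.157). The difference was 0.53 ± 0.27 for Utp4, 0.29 ± 0.23 for Nop58 and -0.68 ± 0.41 for Pes1. No difference in response to the agents was shown for any other member in the settings run.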

How the data were processed

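Poly(A)-selected, strand-marked RNA libraries were counted by the authors, who deposited estimated counts per gene as whole numbers. The submitters' processing notes name Salmon 1.3.0 and the build mm10. Which annotation was used, how transcripts were summed to genes and how long the reads were is not given in the sources used here. Rows without a gene name (1243, holding 0.0216% of counts) were not removed before the filter and the tests. Groups came from the labels, which leave unsaid whether replicate libraries are separate cultures. The p-values therefore reflect only how much these libraries vary, which may be technical variation. All 178 within-group pairs differed beyond sampling noise (chi-square over its degrees of freedom at least 7.40), and each library counted as 1 sample.

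The members, role groups and lists were chosen with earlier results of these data known. All genes were fitted with edgeR 4.0.16 in R 4.3.3 (TMM, filterByExpr with a minimum count of 10, robust quasi-likelihood F test) on 8 palmitic acid libraries (9845 genes), 27 carmofur libraries (9992) or all 35 (14052), with Benjamini-Hochberg adjustment over all genes tested at 0.05. All 46 members passed the filter in each fit. The floor for a count of 0 was 3 counts, and covers counting error only. Values by library were given for members past the threshold, or for the 6 (carmofur) or 4 (palmitic acid) with the lowest p, and for the members that differed between blocks. Of other lists up to 3 called genes each were named, with Myc, Mdm2 and Cdkn1a. Library sets and blocks were defined from serial numbers in the labels. The test between blocks used 2 contrasts in 1 edgeR fit of 6 groups. Alternatives were RLE and library-size scaling, DESeq2 1.42.0, limma 3.58.1 voom with quality weights, other count filters, libraries or sets left out, sets summed or correlated, blocks as a covariate, and the replicate number as a block. Scripts were tested on simulated data. Gene positions and lengths were taken from GENCODE M21 (GRCm38) and promoters from RefSeq. Processed pseudogenes named after members had at most 8 counts in any library.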

Additional observations from a re-analysis of the deposited data

Results flagged for a closer look

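The carmofur effect of 4 members differed between the 3 library blocks by an edgeR test of the difference itself. That test was added after the data had been seen, and takes the libraries of a set as independent. Nhp2 had an adjusted p of 0.00163, Ebna1bp2 of 0.00414, Dkc1 of 0.0205 and Ncl of 0.0313. In each the effect was below 0 in block 2 (-0.91, -0.90, -0.73 and -0.93 on the log2 scale) and above 0 in block 1 (0.26, 0.43, 0.73 and 0.66). In block 3 the values were 0.38 ± 0.17, 0.32 ± 0.19, 0.11 ± 0.22 and 0.15 ± 0.25 (SE), so that those of Dkc1 and Ncl were within 1 SE of 0. The blocks are runs of serial numbers, not stated batches, and the cause was not tested.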

How the results depend on the processing

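The 0 members called for either palmitic acid batch, or between them, stayed 0 under every alternative run. Of the 4 members called with carmofur, Nip7 and Utp4 were called in every alternative over all blocks. Nop58 and Pes1 were each lost under several: Nop58 with RLE scaling (adjusted p = 0.0504), Pes1 with library-size scaling (0.0565), and both without library sets 1, 3 or 7, with counts summed by set and with sets as a correlated group, which leave 2 members each. Nop58 was also lost without sets 2, 8 or 9 and with block as a covariate, and Pes1 without sets 4, 5 or 6, without carmofur control 1 and carmofur 8 and 10, and with voom. Leaving out 1 library set gave 2 to 5 members. Within blocks 1, 2 and 3 the count was 1, 8 and 3. Nop58 (-0.12) and Ddx21 (-0.35) reversed within block 2, and Pes1 (0.0205) within block 3. The difference between the agents had 1 member, Nip7, with library-size scaling (adjusted p = 0.042) and with voom and quality weights (0.0135). The difference between blocks had 2 members (Nhp2 and Ebna1bp2) without a filter. With set 2, 3, 5, 6, 7 or 9 left out it had 2 to 6, with 2 without set 2. Sets 1, 4 and 8 were not left out here, since each is the only control or only carmofur set of its block. Nhp2 and Ebna1bp2 passed in every setting run for this test, while Dkc1 and Ncl were each lost in some. None of these settings summed the sets or took them as a correlated group. Same-numbered libraries did not deviate together (r from -0.02 to 0.02 over 7 palmitic acid pairs and from -0.02 to 0.05 over 12 carmofur pairs). These deviations are from group means, which ties them to each other in the small palmitic acid groups. The check therefore cannot show that same-numbered libraries were unpaired. With the replicate block carmofur had 4 members, with Npm1 lower in place of Nop58, and the palmitic acid comparisons and the difference between agents had 0. Without a filter 3541 of 24076 genes passed with carmofur against 901 of 9992, and the median over all genes moved to 0.12. Other counts over all genes that moved by more than 1.5 times were 334 with carmofur summed by set, 224 (DESeq2), 269 (voom) and 65 (replicate block) against 115 for the difference between agents, and 55 (DESeq2) and 70 (batches merged) against 32 for palmitic acid batch 2. The difference between batches had 15 (DESeq2) and 19 (no filter) against 10, and that between blocks had 94 (no filter) to 289 (without set 7) against 178. Without 1 library, palmitic acid batch 1 had 21 to 72 genes against 55, lowest without its library 3. Members under 20 CPM, with standard errors of 0.38 or more, could hold moderate changes that were not detectable. Beyond these, the causes were not tested.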
